A study of Mus musculus with 18 samples.

Results

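The genes described here are 49 mouse orthologues of human chromosome 21 genes that lie outside the duplicated stretch of the Dp16 mouse and are therefore present in 2 copies in every animal of the study. They were taken as a list of gene symbols, from Umodl1 to Rrp1b on chromosome 17 and from Prmt2 to Pdxk on chromosome 10, and all 49 were found among the 55385 genes of the count table. The list goes by chromosome and orthology, and Cbs, an orthologue in the same stretch of chromosome 17, is not on it. Polyadenylated RNA was sequenced from brain cortex of 18 mice aged 17.1 to 18 weeks, in 3 groups of 6 libraries with 3 males and 3 females each. WT animals were C57BL/6J, with no engineered allele. In Dp16 animals a segment of chromosome 16 is duplicated, and its genes are in 3 copies. The Dp16_2xIFNRs group has the same duplication, with the 4 interferon receptor genes Ifnar1, Ifnar2, Ifngr2 and Il10rb back at 2 copies. The labels give no treatment and do not state the strain background of the 2 duplication genotypes. They list each library as a separate sample of its group.

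As background, human chromosome 21 corresponds to parts of 3 mouse chromosomes. The largest part is on mouse chromosome 16, and the rest is split between chromosomes 17 and 10. The Dp16 mouse copies the chromosome 16 part only, so the orthologues on the other two chromosomes stay at the normal dose, whereas all of them are in excess in people with trisomy 21. Among them are genes for ribosome assembly, splicing and RNA editing, for lipid, sugar and vitamin metabolism, for collagen and leukocyte adhesion, and for the astrocyte calcium-binding protein S100B. Their own copy number is the same in all 3 groups of mice.

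On GRCm38 the 16 genes of chromosome 17 lie in an interval of chr17:30954640-32062865, and the 33 genes of chromosome 10 lie in chr10:76207222-78464975. The duplicated segment was taken as chr16:75540514-97962622, from Lipi to Zbtb21. Of the 49 orthologues 41 had enough counts to be tested, 12 on chromosome 17 and 29 on chromosome 10. The other 8 were at or near 0 in cortex, with at most 11 counts in any library. They were Tff3, a mucosal trefoil peptide, with 0 counts in all 18 libraries, which allows up to 0.00314 CPM (counts scaled to a common library size), counting error only, and Ubash3a, a T cell phosphatase-like protein, with 24 counts in all. Spatc1l had 31 counts, the folate enzyme gene Ftcd 32, the methyltransferase cofactor Dnmt3l 49, the protease gene Tmprss3 52, the thymic transcription regulator Aire 76 and the lens crystallin Cryaa 91. No fold change is given for these 8.

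The libraries held 46346019 to 67281449 counts each, and no pair of libraries had identical counts. The cortex markers were high in every library: 6 excitatory neuron genes summed to 1794 to 2331 CPM in the WT libraries, 1736 to 2096 CPM in the Dp16 libraries and 1730 to 2093 CPM in the Dp16_2xIFNRs libraries. Traces of neighbouring tissue varied between libraries. For 4 choroid plexus genes the sum was 6.40 to 197 CPM in WT libraries, 8.47 to 389 CPM in Dp16 libraries and 7.13 to 19.3 CPM in Dp16_2xIFNRs libraries, and for 5 striatal genes it was 191 to 608, 186 to 511 and 180 to 697 CPM in the same order. Of the 4 choroid plexus genes 1, Clic6, lies in the duplicated segment, so their sum takes in its extra copy in both duplication groups. In bulk tissue, fewer cells of a type and less RNA per cell cannot be told apart. The duplication itself was visible in the segment, where 64 of 111 tested genes outside the receptor cluster were called higher in Dp16 and 63 in Dp16_2xIFNRs, with none called lower. The 4 receptor genes were called higher in Dp16 and none of them was called in Dp16_2xIFNRs compared with WT.

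The 49 orthologues covered a wide range of levels in WT and duplication cortex alike. Per length, the mean over 18 libraries was highest for Rrp1, a nucleolar protein of ribosome assembly, at 145 RPKM (reads per kilobase of the gene, scaled to a common library size), followed by the astrocyte gene S100b at 93.2 RPKM. The lipid acyltransferase gene Agpat3 came next at 46.8 RPKM, then Pfkl, the liver-type phosphofructokinase of glycolysis, at 46.1, and Pdxk, the pyridoxal kinase that activates vitamin B6, at 40.4. The ranges of these last 3 over the libraries overlapped. All 3 were measured in the same libraries, so the overlap does not settle their order, which was not tested. Adarb1, which encodes the RNA-editing enzyme ADAR2, stood at 36.8 RPKM, the splicing factor gene U2af1 at 27.3, Sumo3 at 25.8, the complex I subunit gene Ndufv3 at 24.9 and the trafficking gene Trappc10 at 23.7. The ranges of Adarb1 and Pdxk also overlapped, as did those of U2af1, Sumo3, Ndufv3 and Trappc10. At the low end were Col18a1 at 0.902 RPKM, Tspear at 0.145, Hsf2bp at 0.0660 and Umodl1 at 0.0591.

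**Figure D1:**
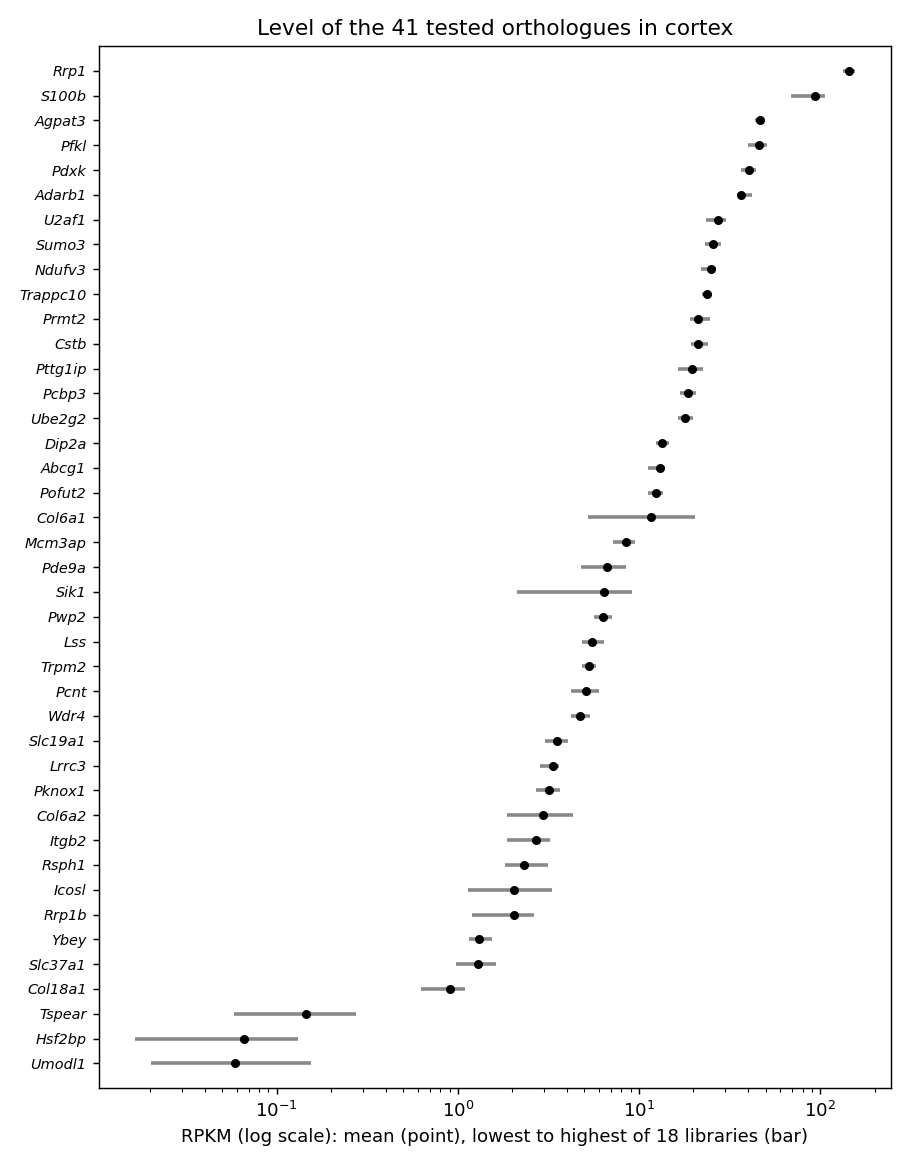
Mean RPKM (point) and the range from the lowest to the highest of 18 libraries (bar) for the 41 tested orthologues, on a log axis. Rrp1 and S100b stand at the top, and Tspear, Hsf2bp and Umodl1 lie below 0.2 RPKM with wide bars.

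Most orthologues varied little from mouse to mouse. The highest of the 18 libraries exceeded the lowest by a median factor of 1.30 in CPM over the 41 tested genes, and by 1.26 over the 31 genes with a mean of at least 10 CPM. Of these 31 genes 26 stayed under a factor of 1.5, and the other 5 were Sik1, Col6a1, Col6a2, Pde9a and S100b. In Sik1, an activity-induced kinase gene, the highest library exceeded the lowest by a factor of 4.24, in the collagen VI gene Col6a1 by 3.78 and in Col6a2 by 2.25. Among the 10 genes below 10 CPM, Hsf2bp reached a factor of 8.01, Umodl1 7.69, Tspear 4.57, Icosl 2.81 and Rrp1b, a paralogue of Rrp1, 2.14.

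The question put to these genes was whether the chromosome 16 duplication moves orthologues that it does not copy. In Dp16 cortex they were centred on the WT level. None of the 41 tested orthologues was called in Dp16 compared with WT by edgeR's quasi-likelihood test at a Benjamini-Hochberg adjusted p below 0.05. The same test called 0.748% of all 18717 tested genes. Outside the duplicated segment it called 51 of 18602 genes higher and 21 lower. With so small a share, 0 calls among 41 genes do not set the orthologues apart from other genes. At an unadjusted p below 0.05 there were 6 of 41, 3 higher and 3 lower, beside 8.84% of all tested genes. DESeq2 and limma-voom also called 0. The 6 WT and 6 Dp16 libraries did not separate completely for any of the 41 genes, beside 0.919% of all tested genes. The median log2 fold change of the 41 genes was -0.0007, beside -0.002 over all tested genes and 0.55 over the 111 segment genes, and 20 of 41 lay above 0. These counts cover the listed genes only. Cbs, an unduplicated orthologue within the chromosome 17 interval that is not listed, was called lower in both duplication genotypes, at 0.679-fold in Dp16 and 0.589-fold in Dp16_2xIFNRs, and is described with the neighbouring genes.

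The duplication mice with normal receptor dose gave much the same picture. In Dp16_2xIFNRs compared with WT, edgeR's quasi-likelihood test called none of the 41, beside 1.05% of all tested genes, and limma-voom called 0. Outside the segment edgeR called 75 of 18602 genes higher and 58 lower. DESeq2 called 1 of 41, Icosl. At an unadjusted p below 0.05 edgeR had 4 of 41, 2 higher and 2 lower, beside 11.5% of all tested genes. For no orthologue did the 6 libraries of one group lie entirely above those of the other, beside 1.34% of all tested genes. The median log2 fold change was 0.004, beside 0.0004 over all tested genes and 0.56 over the segment, and 22 of 41 lay above 0. Both comparisons use the same 6 WT libraries, so their values for a gene are not independent of each other.

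No orthologue passed the threshold between the 2 duplication genotypes, which differ in receptor dose. Between Dp16_2xIFNRs and Dp16, edgeR's quasi-likelihood test, DESeq2 and limma-voom each called 0 of 41, beside 0.0214% of all tested genes in edgeR, which are the 4 receptor genes themselves. None of the 41 had an unadjusted p below 0.05, beside 2.19% of all tested genes, and for none were the 2 groups free of overlap, beside 0.107%. The median log2 fold change was -0.01.

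A missed threshold does not show that a level stayed the same. The upper bound of the 95% interval of each fold change was therefore read against 1.5, the ratio of 3 copies to 2. This reading limits a rise and not a fall. Cbs, called lower in Dp16 at 0.679-fold, also lay below 1.5-fold. In Dp16 the interval lay entirely below 1.5-fold for 37 of 41 orthologues, beside 82.7% of all tested genes and 14 of the 111 segment genes. In Dp16_2xIFNRs it lay below 1.5-fold for 37 of 41, beside 83.3% of all tested genes and 15 of the 111. Between the 2 duplication genotypes it did so for 39 of 41, beside 87.3%. There the receptor genes go from 3 copies to 2, and all 4 of them also lay below 1.5-fold. That count therefore cannot show whether an orthologue followed the receptor dose. The intervals that reached 1.5-fold belonged to Umodl1, Icosl, Tspear and Col6a1 in Dp16 and to Umodl1, Icosl, Sik1 and Col6a1 in Dp16_2xIFNRs. These 5 genes were among the 6 orthologues with the largest ratio of the highest to the lowest library, a ratio that takes in any genotype difference. For Icosl in both groups and for Umodl1 in Dp16, the estimate itself lay above 1.5-fold. For the 31 genes with at least 10 CPM, fold changes ran from 0.883 to 1.14 in Dp16, with 27 of 31 between 0.9 and 1.1, and from 0.889 to 1.12 in Dp16_2xIFNRs, with 29 of 31 in that range.

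**Figure D2:**
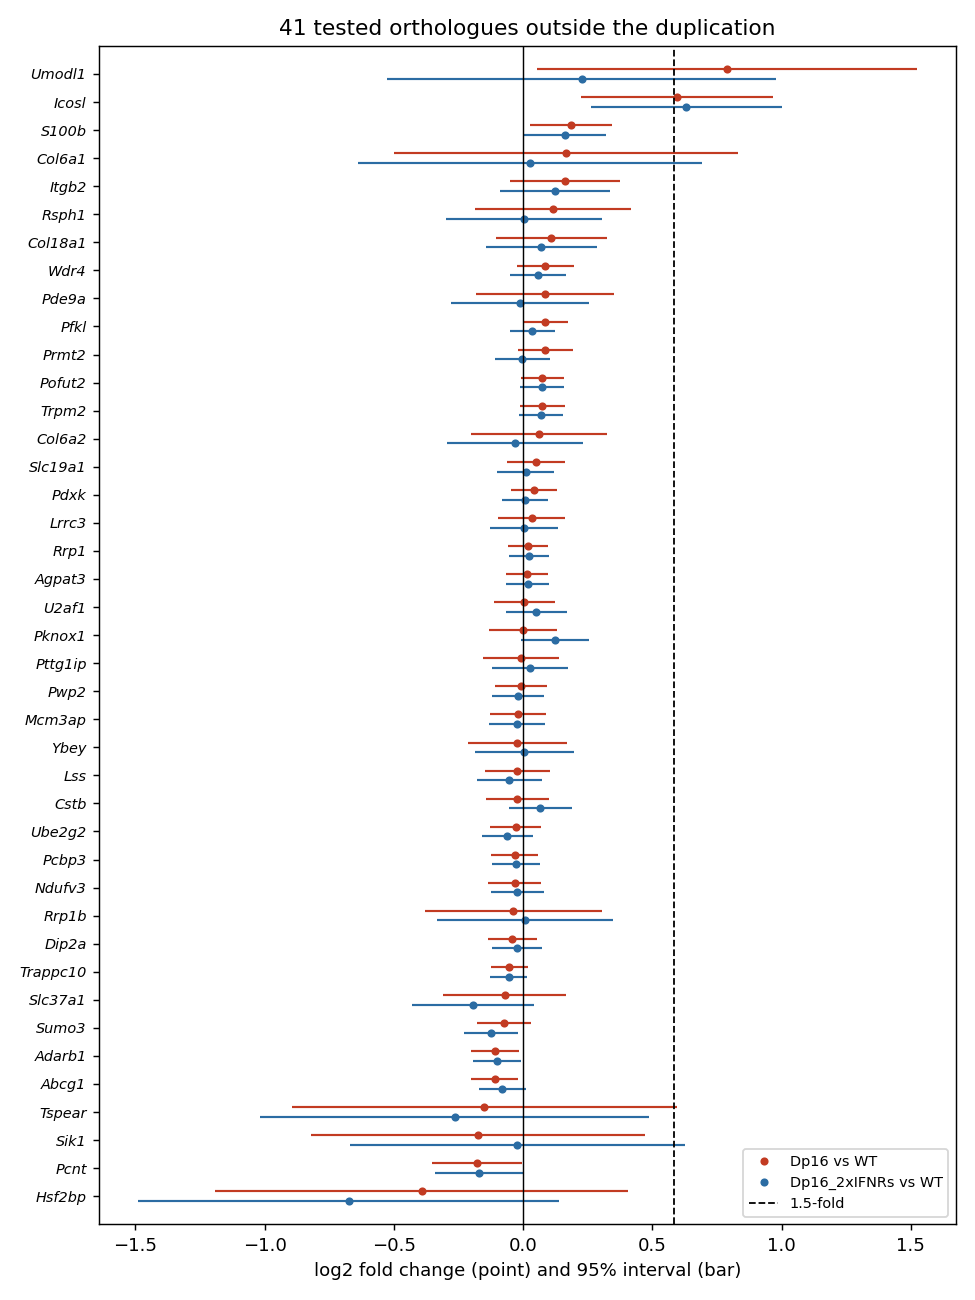
Log2 fold change with 95% interval of each tested orthologue against WT, for Dp16 and Dp16_2xIFNRs, with lines at 0 and at the copy ratio of 1.5. Most intervals cross 0 and end below the ratio, and Icosl lies to the right of 0 in both.

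Taken library by library, the orthologues also stayed together. The median over the tested orthologues of log2 CPM less the WT mean was 0.003 ± 0.037 in WT, 0.017 ± 0.029 in Dp16 and 0.006 ± 0.037 in Dp16_2xIFNRs (SD, n = 6 each). The Dp16 libraries ran from -0.026 to 0.056 and the Dp16_2xIFNRs libraries from -0.039 to 0.046, so the groups overlapped widely. The same median over segment genes outside the receptor cluster was 0.002 ± 0.009 in WT, 0.56 ± 0.018 in Dp16 and 0.55 ± 0.017 in Dp16_2xIFNRs. The 12 tested genes of chromosome 17 had a median log2 fold change of -0.02 in Dp16 and -0.01 in Dp16_2xIFNRs, and the 29 of chromosome 10 had 0.01 and 0.01.

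**Figure D3:**
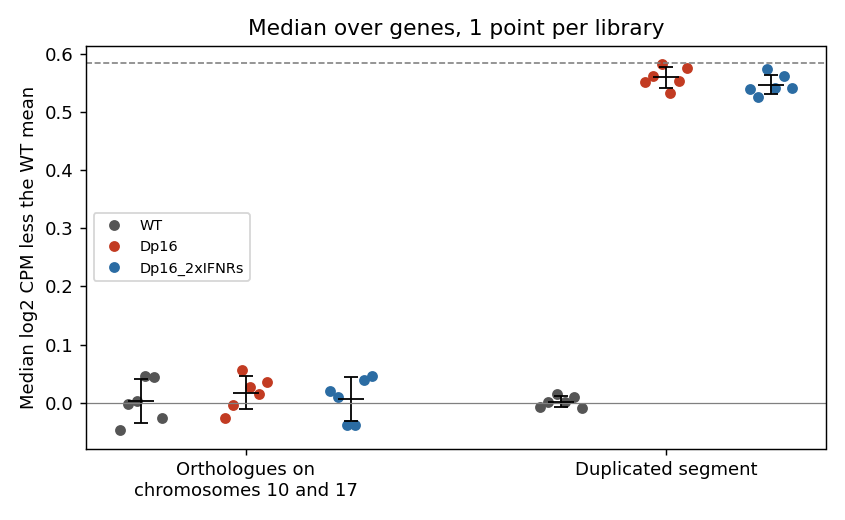
Median log2 CPM less the WT mean, 1 point per library, for the orthologues and for the duplicated segment without the receptor genes. The orthologues stay near 0 in all 3 genotypes, and the segment lies near 0.56 in Dp16 and 0.55 in Dp16_2xIFNRs.

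In what follows, a count of called genes in a group or list is that of edgeR's quasi-likelihood test. Icosl showed the smallest p of the orthologues. It encodes the ligand of the T cell co-stimulator ICOS, is made by antigen-presenting cells, and lies at chr10:78069302-78083913. WT libraries had 3.31, 4.13 and 5.97 CPM as lowest, median and highest, Dp16 libraries 4.83, 6.09 and 9.29, and Dp16_2xIFNRs libraries 4.55, 6.71 and 8.52. Both duplication groups had higher medians than WT, but each overlapped the WT range. The means were 4.27 ± 0.980, 6.45 ± 1.54 and 6.61 ± 1.47 CPM (SD, n = 6). The fitted log2 fold change was 0.59 (SE 0.177) in Dp16, with an adjusted p of 0.200 by edgeR's quasi-likelihood test with Benjamini-Hochberg adjustment, and 0.63 (SE 0.177) in Dp16_2xIFNRs, with an adjusted p of 0.113. These correspond to 1.51-fold with a 95% interval of 1.17 to 1.95 and 1.55-fold with 1.2 to 2.00. DESeq2 gave Benjamini-Hochberg adjusted p-values of 0.0508 and 0.0220 for the same differences. Without WT replicate 4, the highest WT library, edgeR's test gave 0.0718 and 0.0464. Without Dp16 replicate 4, the highest Dp16 library, the log2 fold change in Dp16 fell to 0.45, with an adjusted p of 0.438 by edgeR's test. Over all alternatives the adjusted p was 0.0508 to 0.438 for Dp16 and 0.0220 to 0.239 for Dp16_2xIFNRs, and the difference was positive in 32 of 32 alternatives in each.

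Between Dp16_2xIFNRs and Dp16, Icosl differed by 0.04 (SE 0.173) on the log2 scale. Markers of cells that could carry it were read beside it. The 6 microglia markers had log2 fold changes above 0 in 0 of 6 cases in either duplication group, with medians of -0.14 and -0.18, and none was called. Their summed level was 304 to 473 CPM across WT libraries, 343 to 420 CPM across Dp16 libraries and 348 to 411 CPM across Dp16_2xIFNRs libraries. The markers of border macrophages and white blood cells summed to 4.51 to 10.6 CPM in WT, 7.26 to 10.9 in Dp16 and 6.82 to 10.1 in Dp16_2xIFNRs. Of these 8 markers 5 were tested, 4 and 5 of them lay above 0 with medians of 0.21 and 0.21, and the T cell gene Cd3e and the neutrophil gene Ly6g were among those too low to test. The part of these cells in the Icosl values was not tested.

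Since the 2 duplication genotypes differ in interferon receptor dose, promoters were searched for elements that interferon-activated factors are known to bind. Icosl, shown because it had the smallest p, has no match in the 250 bases before its start in RefSeq, and Slc37a1, shown because it alone among the matched orthologues has an interferon-stimulated response element in that window, encodes a sugar phosphate transporter. Sequences are RefSeq promoters of GRCm38.p6, printed 5′ to 3′ on the plus strand, chr10:78069118-78069367 for Icosl and chr17:31295974-31296223 for Slc37a1, with the element in capitals.
Icosl: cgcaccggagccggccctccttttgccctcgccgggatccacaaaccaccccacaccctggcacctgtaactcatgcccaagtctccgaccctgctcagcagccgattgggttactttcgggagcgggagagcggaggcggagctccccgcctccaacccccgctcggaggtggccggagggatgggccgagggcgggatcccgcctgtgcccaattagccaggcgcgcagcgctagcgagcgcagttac
Slc37a1: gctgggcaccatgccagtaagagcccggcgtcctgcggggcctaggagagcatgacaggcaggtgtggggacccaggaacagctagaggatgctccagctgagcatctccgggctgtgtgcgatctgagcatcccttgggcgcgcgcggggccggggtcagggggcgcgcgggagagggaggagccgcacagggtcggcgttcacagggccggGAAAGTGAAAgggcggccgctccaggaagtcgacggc

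Promoters of 37 of the 49 orthologues were in the RefSeq table. The response element was searched as GAAA, any 2 bases and GAAA on both strands and occurs in 3.44% of all 32851 promoters, the gamma-activated site TTCNNNGAA in 8.30% and the cAMP response element TGACGTCA in 1.79%. Among the orthologues, Slc37a1 alone had the first, beginning 37 bases before its RefSeq start, Dnmt3l and Pcnt had the second, and none had the third. Slc37a1 RNA stood at 5.04 ± 0.568 CPM in WT, 4.79 ± 0.788 in Dp16 and 4.40 ± 0.580 in Dp16_2xIFNRs (SD, n = 6), with fold changes of 0.952 and 0.874 against WT and adjusted p-values of 0.937 and 0.561 by edgeR's quasi-likelihood test with Benjamini-Hochberg adjustment.

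Trpm2, a calcium-permeable channel gene active in immune cells, was the other tested gene of the immune group. It stood at 38.4 ± 1.60 CPM in WT, 40.5 ± 1.84 in Dp16 and 40.3 ± 1.29 in Dp16_2xIFNRs (SD, n = 6), 1.05-fold in both. Of the 4 immune orthologues 2 were tested, and edgeR called 0 with all libraries. DESeq2 called Icosl in Dp16_2xIFNRs compared with WT, and so did edgeR without WT replicate 4, as given above.

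Among the regulators, S100b at chr10:76253853-76261159 had the largest difference of the well-expressed orthologues in Dp16 compared with WT. Its protein is a calcium-binding marker of astrocytes that is released into the extracellular space. WT libraries had 101, 127 and 153 CPM as lowest, median and highest, Dp16 libraries 134, 143 and 157, and Dp16_2xIFNRs libraries 129, 143 and 152. The WT libraries spread more widely than the others, and the 4 lowest of them lay below every Dp16 library. WT replicate 6 was the lowest. The log2 fold change was 0.19 (SE 0.0759) in Dp16 and 0.16 (SE 0.0758) in Dp16_2xIFNRs, with adjusted p-values of 0.460 and 0.423 by edgeR's quasi-likelihood test with Benjamini-Hochberg adjustment. Without WT replicate 6 it was 0.13 and 0.10. In Dp16_2xIFNRs the difference of Pcnt, at -0.17, was larger in size than that of S100b. The summed level of 6 astrocyte markers was 5030 to 7792 CPM across WT libraries, 5708 to 7719 CPM across Dp16 libraries and 5654 to 7579 CPM across Dp16_2xIFNRs libraries. Of these 6 markers 5 and 4 had fold changes above 0 against WT, 0 were called, and their part in the S100b values was not tested. S100b overlaps Dip2a, on the opposite strand, by 1731 bases, and the strand setting of the counting is not given in the sources used here, so the values of both are uncertain.

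**Figure D4:**
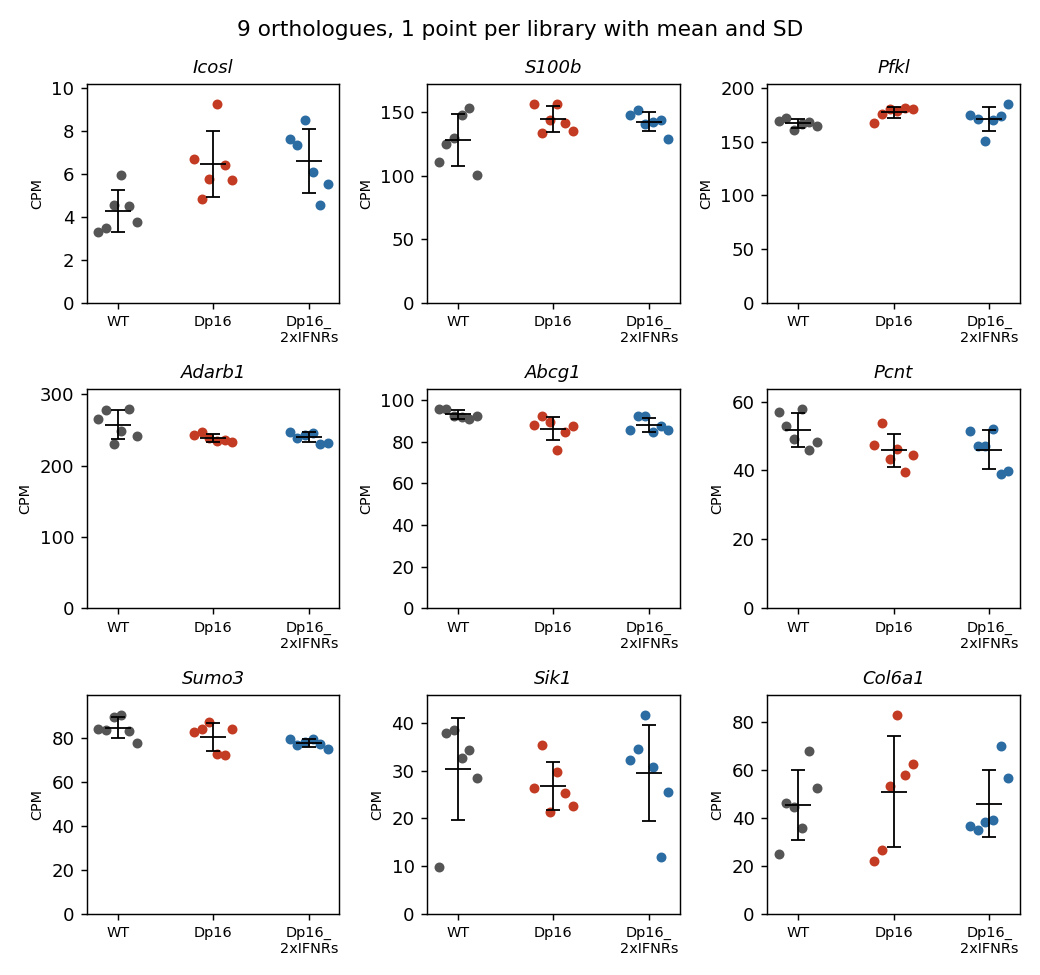
CPM in each library with the group mean and SD (n = 6) for 9 orthologues, on axes that start at 0. WT and duplication libraries overlap in every panel, Icosl has higher means in both duplication groups than in WT, and Sik1 and Col6a1 spread widely within groups.

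Sumo3, a ubiquitin-like modifier, had a mean of 84.6 ± 4.69 CPM in WT, 80.4 ± 6.41 in Dp16 and 77.7 ± 1.78 in Dp16_2xIFNRs (SD, n = 6). The Dp16_2xIFNRs libraries ran from 74.9 to 79.6 CPM and 5 of the 6 WT libraries lay above 79.6. The log2 fold change was -0.07 in Dp16 and -0.12 in Dp16_2xIFNRs, with adjusted p-values of 0.752 and 0.318 by edgeR's quasi-likelihood test with Benjamini-Hochberg adjustment. The ubiquitin-conjugating enzyme gene Ube2g2, which acts in the degradation of misfolded proteins, was at 0.981-fold and 0.959-fold. A further annotated transcript, Gm49325, lies over both genes on the same strand, so that reads could be split. Of 14 other genes of SUMO attachment and endoplasmic reticulum degradation, 0 were called in any genotype comparison, with medians of -0.02 in both against WT.

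Pknox1, a homeobox cofactor gene at chr17:31564734-31607693, was equal to WT in Dp16, at 14.8 ± 1.39 and 14.8 ± 0.765 CPM, and stood at 16.1 ± 0.921 CPM in Dp16_2xIFNRs (SD, n = 6), 1.09-fold with an interval of 0.994 to 1.19. Of 7 related homeobox genes 0 were called, with medians of -0.02 and -0.05. Cstb, the cystatin B gene whose protein inhibits cathepsins, was at 12.6 ± 1.19, 12.4 ± 0.474 and 13.2 ± 0.533 CPM. The 7 genes listed with it were cathepsin genes and a further cystatin gene, Cst3. All 7 lay above 0 in both duplication groups, with medians of 0.09 and 0.09, and 0 were called. Dip2a was at 0.972-fold and 0.984-fold. In all, 0 of the 7 tested regulators were called.

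Sik1 at chr17:31844250-31855804 was the most variable well-expressed orthologue. It encodes a salt-inducible kinase that restrains CREB coactivators and is induced by neuronal activity. WT libraries had 9.85, 33.5 and 38.6 CPM as lowest, median and highest, Dp16 21.3, 25.9 and 35.3, and Dp16_2xIFNRs 11.96, 31.5 and 41.8. The 2 low values belonged to WT replicate 1 and Dp16_2xIFNRs replicate 5, and the groups overlapped. The fold change was 0.885 in Dp16, with an interval of 0.565 to 1.39, and 0.984 in Dp16_2xIFNRs, with an interval of 0.628 to 1.54. Over the 18 libraries Sik1 followed the mean of the activity genes Fos, Npas4, Nr4a1 and Arc, with Pearson's r of 0.62 (permutation p = 0.0043, adjusted over 5 relations 0.0108) and Spearman's rho of 0.74 (permutation p = 0.0005, adjusted 0.0012). Without WT replicate 2 and Dp16 replicate 3, the libraries farthest from the median of the activity genes, r was 0.62. Within WT, Dp16 and Dp16_2xIFNRs r was 0.52, 0.65 and 0.95. Of 10 genes of the SIK and CREB list 0 were called, with medians of -0.12 in Dp16 and -0.002 in Dp16_2xIFNRs.

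Among the 10 RNA and ribosome genes none was called in either comparison with WT, and 4 and 5 of them lay above 0. Adarb1 at chr10:77290726-77418270 had 231, 257 and 280 CPM as lowest, median and highest WT library, 233, 238 and 248 in Dp16, and 231, 241 and 248 in Dp16_2xIFNRs. The 4 highest WT libraries lay above every library of both duplication groups, while the other 2 did not. The log2 fold change was -0.11 (SE 0.0447) in Dp16 and -0.10 (SE 0.0447) in Dp16_2xIFNRs, with adjusted p-values of 0.464 and 0.376 by edgeR's quasi-likelihood test with Benjamini-Hochberg adjustment. Of 7 genes listed for RNA editing, among them the edited glutamate receptor gene Gria2, 0 were called, with medians of 0.08 and 0.01.

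The ribosome assembly genes were close to WT. Rrp1 stood at 285 ± 10.4 CPM in WT, 289 ± 9.48 in Dp16 and 289 ± 10.01 in Dp16_2xIFNRs (SD, n = 6), 1.01-fold in both with intervals of 0.961 to 1.07 and 0.962 to 1.07. Pwp2, of the small-subunit processome, was at 0.994-fold and 0.987-fold. Rrp1b, at 5.97 to 12.8 CPM across WT libraries, was at 0.974-fold and 1.00-fold, and it overlaps Hsf2bp on the opposite strand by 250 bases. Of 15 further genes of ribosomal RNA processing 0 were called, with medians of 0.02 and 0.03.

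U2af1, which recognises the 3′ splice site, was at 30.0 ± 2.79, 30.1 ± 1.46 and 31.0 ± 1.24 CPM, 1.00-fold in Dp16 with an interval of 0.924 to 1.09 and 1.04-fold in Dp16_2xIFNRs with an interval of 0.954 to 1.12. Of 8 other splice site genes 1 and 2 lay above 0, with medians of -0.06 and -0.04, and 0 were called. Wdr4, of a transfer RNA methyltransferase, was at 1.06-fold and 1.04-fold. The poly(C)-binding protein gene Pcbp3 was at 0.977-fold and 0.981-fold, and the messenger RNA export gene Mcm3ap at 0.986-fold and 0.984-fold. Prmt2, an arginine methyltransferase gene, was at 1.06-fold and 0.998-fold, and Ybey at 0.985-fold and 1.00-fold.

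The 9 tested metabolic and transport genes had 0 calls, with 5 and 4 above 0. Abcg1 at chr17:31057675-31117988, an exporter of cholesterol, had 91.1, 92.4 and 95.8 CPM as lowest, median and highest WT library, 76.0, 87.8 and 92.2 in Dp16, and 84.9, 86.7 and 92.6 in Dp16_2xIFNRs. The WT libraries were tightly grouped, and the duplication libraries lay mostly below them with overlap at the upper end. The log2 fold change was -0.11 (SE 0.0431) in Dp16 and -0.08 (SE 0.0431) in Dp16_2xIFNRs, with adjusted p-values of 0.421 and 0.510 by edgeR's quasi-likelihood test with Benjamini-Hochberg adjustment. Of 7 other genes of cholesterol export 0 were called, with medians of -0.07 and -0.03. Lss, the lanosterol synthase of cholesterol synthesis, was at 0.985-fold and 0.963-fold, and 0 of 16 sterol synthesis genes were called, with medians of 0.01 and -0.01. Over 18 libraries Lss and the sterol synthesis list had r of 0.39 (permutation p = 0.114, adjusted over 5 relations 0.143) and rho of 0.37 (permutation p = 0.132, adjusted 0.174), r was 0.42 without WT replicate 6 and Dp16_2xIFNRs replicate 5, and within WT, Dp16 and Dp16_2xIFNRs it was 0.60, -0.71 and 0.54.

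Pfkl stood at 167 ± 4.03 CPM in WT, 178 ± 5.12 in Dp16 and 171 ± 11.3 in Dp16_2xIFNRs (SD, n = 6). It was 1.06-fold in Dp16 with an interval of 0.999 to 1.13 and 1.03-fold in Dp16_2xIFNRs. Of 15 other glycolysis genes 0 were called, with medians of 0.01 and 0.03. Pdxk was at 1.03-fold and 1.01-fold, Agpat3 at 1.01-fold in both, and Slc19a1, the reduced folate carrier, at 1.04-fold and 1.01-fold. Slc19a1 overlaps Col18a1 on the opposite strand by 8825 bases. Of 11 listed genes of vitamin B6 and folate metabolism 0 were called. Ndufv3 was at 0.977-fold and 0.984-fold, and 0 of 6 genes of the same arm of complex I were called, with medians of 0.01 and 0.02. Pde9a, the phosphodiesterase that degrades cyclic GMP, was at 14.5 ± 2.53, 15.4 ± 3.17 and 14.4 ± 1.42 CPM, 1.06-fold and 0.991-fold. Of 10 other genes of cyclic GMP signalling 0 and 2 lay above 0, with medians of -0.06 and -0.05, and 0 were called.

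The 7 matrix and adhesion genes had 0 calls. Col6a1 at chr10:76708792-76726168 and Col6a2 at chr10:76595762-76623630 encode chains that assemble into collagen VI. Col6a1 had 24.7, 45.4 and 67.9 CPM as lowest, median and highest WT library, 21.9, 55.6 and 83.0 in Dp16, and 35.1, 38.6 and 69.7 in Dp16_2xIFNRs. Values ranged widely within each group, with the lowest WT library being replicate 1 and the lowest Dp16 library being replicate 1. The descriptions of these 2 libraries share an identifier, which Dp16_2xIFNRs replicate 1 also has. The fold change was 1.12 in Dp16, with an interval of 0.708 to 1.78, and 1.02 in Dp16_2xIFNRs, with an interval of 0.642 to 1.62. Col6a2 had fold changes of 1.04 and 0.979. The 2 collagen genes varied together over the libraries.

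Over 18 libraries Col6a1 and Col6a2 had r of 0.90 and rho of 0.92, each with a permutation p of 1e-05, the smallest that the resampling can give, and adjusted over 5 relations 5e-05. Without WT replicate 1 and Dp16 replicate 1, r was 0.86, and within WT, Dp16 and Dp16_2xIFNRs it was 0.93, 0.92 and 0.87. WT replicate 1 and Dp16 replicate 1 were the 2 lowest libraries for 2 of the 31 orthologues with at least 10 CPM, and for 377 of 9941 tested genes at that level. WT replicate 6 was the lowest library for 10 of the 41 orthologues, S100b and Itgb2 among them, beside 12.4% of all tested genes. The mean of Col6a1 and Col6a2 did not follow 6 markers of meningeal fibroblasts, a source of collagen at the brain surface, with r of -0.24 (permutation p = 0.339, adjusted over 5 relations 0.339), rho of -0.28 (permutation p = 0.257, adjusted 0.257), r of -0.29 without Dp16_2xIFNRs replicate 4 and WT replicate 6, and -0.24, -0.23 and -0.43 within WT, Dp16 and Dp16_2xIFNRs. Of 14 other genes of collagen and basement membrane 0 were called, with medians of 0.10 and 0.09. Col18a1, a basement membrane collagen, was at 1.08-fold and 1.05-fold.

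**Figure D5:**
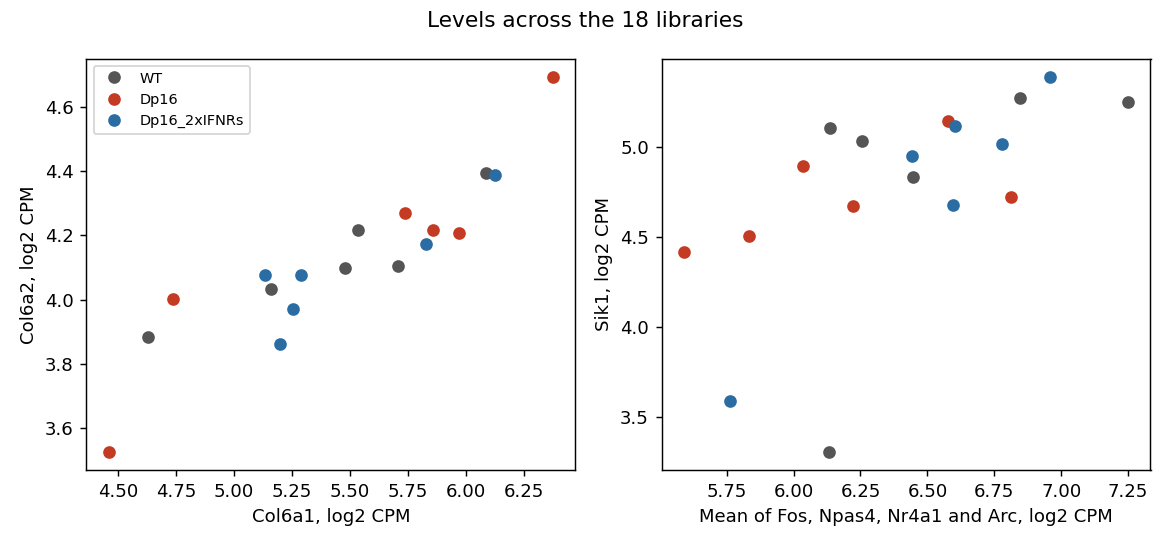
Log2 CPM of each library for Col6a1 against Col6a2 and for the mean of 4 activity genes against Sik1, with genotypes by colour. Col6a1 and Col6a2 lie along a line (r of 0.90 over 18 libraries), and Sik1 is lowest in WT replicate 1 and Dp16_2xIFNRs replicate 5.

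Itgb2 at chr10:77530252-77565708 encodes the beta-2 chain of leukocyte integrins, which in brain is made by microglia. It stood at 7.48 ± 1.22 CPM in WT, 8.38 ± 0.937 in Dp16 and 8.14 ± 0.607 in Dp16_2xIFNRs (SD, n = 6), 1.12-fold with an interval of 0.966 to 1.30 and 1.09-fold with an interval of 0.939 to 1.26. On the log2 scale these were 0.16 and 0.12, and without WT replicate 6, the lowest library, 0.08 and 0.04. Over 18 libraries Itgb2 and the mean of 6 microglia markers had r of 0.50 (permutation p = 0.0344, adjusted over 5 relations 0.0573) and rho of 0.36 (permutation p = 0.139, adjusted 0.174). Without WT replicates 6 and 4 r was 0.05, so the size of the pooled r depends on those 2 libraries. Within WT, Dp16 and Dp16_2xIFNRs r was 0.96, 0.65 and 0.82, so Itgb2 also rose with the markers within the duplication groups, which hold neither library. Of 8 listed genes related to beta-2 integrins 0 were called. Lrrc3 was at 1.02-fold and 1.00-fold, and Pofut2, which adds fucose to proteins, at 1.05-fold in both. Tspear, at 0.390 ± 0.183 CPM in WT, had intervals of 0.538 to 1.51 and 0.494 to 1.40, and it spans genes of keratin-associated proteins.

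Among the trafficking, centrosome and cilia genes, 4 of 5 were tested and 0 called. Pcnt at chr10:76351263-76442786 encodes pericentrin, a scaffold of the centrosome. WT libraries had 45.9, 50.9 and 57.8 CPM as lowest, median and highest, Dp16 39.6, 45.3 and 53.9, and Dp16_2xIFNRs 38.8, 47.1 and 52.1. Both duplication groups had lower medians than WT, and the groups overlapped. The log2 fold change was -0.18 (SE 0.0827) in Dp16 and -0.17 (SE 0.0827) in Dp16_2xIFNRs, with adjusted p-values of 0.540 and 0.448 by edgeR's quasi-likelihood test with Benjamini-Hochberg adjustment. Of 7 partners of pericentrin 0 were called, with medians of -0.04 and -0.02. Trappc10, of a vesicle tethering complex, was at 0.964-fold and 0.962-fold, with intervals of 0.918 to 1.01 and 0.916 to 1.01, and 0 of 7 other genes of the complex were called. Pttg1ip was at 0.994-fold and 1.02-fold. Rsph1, of the radial spoke of cilia, was at 3.09 ± 0.517 CPM in WT, 1.08-fold and 1.00-fold, and 0 of 7 tested cilia genes were called.

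Of the epithelial, lens and germline group, 2 of 5 genes were tested, both near the limit of detection. Umodl1 at chr17:30954640-31010710 had 0.104, 0.205 and 0.560 CPM as lowest, median and highest WT library, 0.216, 0.330 and 0.796 in Dp16, and 0.141, 0.237 and 0.449 in Dp16_2xIFNRs. The groups overlapped. The log2 fold change was 0.79 (SE 0.351) in Dp16, with an adjusted p of 0.519 by edgeR's quasi-likelihood test with Benjamini-Hochberg adjustment, and 0.23 (SE 0.361) in Dp16_2xIFNRs. Hsf2bp, which acts in meiotic recombination, was at 0.257 ± 0.108, 0.197 ± 0.107 and 0.162 ± 0.0698 CPM, with intervals of 0.438 to 1.33 and 0.356 to 1.1.

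The neighbours of the orthologues were read in the same fit. In the chromosome 17 interval 5 other genes were tested, and Cbs was called lower in both duplication genotypes. Of these 5 genes 2 lay above 0 in Dp16 and 0 in Dp16_2xIFNRs, with median log2 fold changes of -0.05 and -0.33. Those other than Cbs were not called and had WT means of 0.562 to 4.35 CPM. Cbs, at chr17:31608894-31637238, encodes cystathionine beta-synthase of the transsulfuration pathway. It fell from 31.5 ± 2.82 CPM in WT to 21.4 ± 2.53 in Dp16 and 18.5 ± 2.63 in Dp16_2xIFNRs (SD, n = 6), 0.679-fold and 0.589-fold, with adjusted p-values of 0.00212 and 4.36e-05 by edgeR's quasi-likelihood test with Benjamini-Hochberg adjustment. The highest libraries of the duplication groups had 25.03 and 21.5 CPM and the lowest WT library 26.6 CPM. The listed orthologues on either side of it, Pknox1 and U2af1, were at 1.00-fold in Dp16. In the chromosome 10 interval 0 of 9 other tested genes were called. There 4 of the 9 lay above 0 in each comparison with WT, with medians of -0.07 in Dp16 and -0.01 in Dp16_2xIFNRs. Among the 40 tested genes flanking the chromosome 17 interval, 0 were called in Dp16 and 1 was called higher in Dp16_2xIFNRs, and among the 40 flanking the chromosome 10 interval 0 and 0.

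No orthologue passed the threshold between the sexes. Between females and males edgeR's quasi-likelihood test called 0 of 41, beside 0.0641% of all tested genes, and DESeq2 and limma-voom called 0. At an unadjusted p below 0.05 there were 3 of 41, beside 6.64% of all tested genes, and Slc19a1, Umodl1 and Col6a2 were the 3, each higher in females. In 82 tests of a genotype effect that differs between the sexes, 0 passed the threshold, beside 0% of all tested genes in either genotype. At an unadjusted p below 0.05 there were 2 of 41 for Dp16 (S100b and Itgb2), beside 3.08% of all tested genes, and 2 of 41 for Dp16_2xIFNRs (Itgb2 and Cstb), beside 5.87%. The smallest was S100b in Dp16, with a difference in log2 fold change of -0.37 (SE 0.132) and an adjusted p of 1.00 in edgeR's quasi-likelihood test.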

How the data were processed

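Polyadenylated RNA of 18 cortices was extracted with TRIzol and made into strand-specific libraries, per the labels' protocols. The submitters' processing notes name the build GRCm38 and the tools HTSeq 0.6.1, HISAT2 2.1.0, SAMtools 1.5, FastQC 0.11.5 and bcl2fastq. How HTSeq treated strand and reads matching several genes is not given in the sources used here. The authors deposited raw counts per gene. The authors also deposited RPKM values, which were counts over library total and gene length for 31735 of 31735 genes (relative tolerance 1e-06) and were used for levels per length and an alternative fit.

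Positions came from GENCODE release M21, which placed 55144 of 55385 genes. Counts were filtered with filterByExpr (minimum count 10, by group, 18717 genes left), scaled by TMM and fitted with edgeR 4.0.16 (quasi-likelihood, robust, genotype and sex as terms, all 18 libraries, R 4.3.3). Calls needed an adjusted p (Benjamini-Hochberg, all tested genes) below 0.05, and SEs and 95% intervals came from the same fit. CPM use TMM-scaled totals, and log2 CPM a prior count of 2. The common biological coefficient of variation was 12.2% with 14 residual degrees of freedom. No label names a preparation batch. Some descriptions share an identifier across genotypes, and what it marks is not stated, so p-values measure the spread between these samples. Correlations used 100000 two-sided permutations over all 18 libraries, which took no account of genotype or of shared identifiers. Scripts were tested on simulated data.

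The genes and the lists read beside them were chosen with earlier results of these data known. Named were all genes with an unadjusted p below 0.05 against WT, the 2 largest and 2 smallest log2 fold changes among genes of at least 10 CPM in each comparison, and fixed names, with Cbs named as a neighbour. Alternatives covered RLE size factors, TMM without segment genes, 2 other filters, DESeq2 1.42.0, limma-voom and limma 3.58.1 on log2(RPKM + 0.1) and log2(RPKM + 1), other covariates, a replicate block, a shared-identifier block (added after seeing the data), only the 2 groups compared, and each library left out.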

Additional observations from a re-analysis of the deposited data

Results flagged for a closer look

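Of 123 sets of 6 libraries (41 orthologues in 3 genotypes), 6 held a library far from the other 5, by the gap to its nearest neighbour relative to the whole range. Chance gives about 1 in 20 such sets. In Sik1, the activity-induced kinase gene, WT replicate 1 was lowest at 9.85 CPM with the next WT library at 28.4 CPM. In Mcm3ap, the messenger RNA export gene, WT replicate 6 was highest at 59.8 CPM with the next at 55.4, and Dp16 replicate 1 was lowest at 47.1 CPM with the next at 54.3. In Ndufv3, a complex I subunit gene, WT replicate 6 was lowest at 43.8 CPM with the next at 51.2. In Rrp1, the ribosome assembly gene, Dp16 replicate 4 was lowest at 270.1 CPM with the next at 290.7. In Umodl1, near the limit of detection, WT replicate 4 was highest at 0.560 CPM with the next at 0.233. No cause of these values was tested.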

How the results depend on the processing

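In Dp16 compared with WT, in Dp16_2xIFNRs compared with Dp16 and in females compared with males, 0 orthologues were called under every alternative run. In Dp16_2xIFNRs compared with WT, DESeq2 called 1 (Icosl) and leaving out each library in turn gave 0 to 1, the 1 being Icosl without WT replicate 4. All other alternatives gave 0. The median log2 fold change stayed between -0.01 and 0.02 in both comparisons with WT. The number of intervals below 1.5-fold stayed between 36 and 39 in Dp16 and between 35 and 39 in Dp16_2xIFNRs, of 37 each in the fit as reported. Over all tested genes, DESeq2 called 247 in Dp16, 394 in Dp16_2xIFNRs and 20 between the sexes, against 140, 196 and 12 in edgeR. In Dp16_2xIFNRs compared with WT, edgeR called 125 genes without WT replicate 2 and 121 without Dp16_2xIFNRs replicate 2.

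The labels number the libraries 1 to 6 in each genotype. The numbers were not taken as pairs, since correlations of same-numbered libraries ran from -0.18 to 0.43 with 11 of 18 above 0.1. That 11 of 18 libraries correlated best with their own number, among libraries of the other genotypes, is a hint from the data, not from the design. The share that chance would give was not computed. Only genotype means were removed before these correlations. Within each number from 1 to 4 the libraries are of the same sex, so number and sex cannot be told apart there. With the replicate number as a block, 0 orthologues were called in each of the 3 genotype comparisons, and 168, 304 and 3 of all genes instead of 140, 196 and 4. The labels also give 5 identifiers to more than 1 library each, 11 libraries in all, without saying what an identifier marks. The 7 pairs of libraries that share one, 6 of them same-numbered, had correlations from 0.10 to 0.43. Libraries that share an identifier are also of the same sex, so identifier and sex cannot be told apart in these correlations. An alternative chosen after seeing the data, limma-voom with the identifier as a random block, called 0 orthologues in each of the 3 genotype comparisons, and 141, 274 and 4 of all genes.

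Genes near the filter, such as Umodl1, Hsf2bp and Tspear, have few counts and wide intervals, and differences inside those intervals were not detectable at this depth. Orthologues that overlap a gene on the other strand, among them S100b, Dip2a, Slc19a1 and Col18a1, have uncertain values.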
